A study of Mus musculus with 3 samples.

Results

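The 10 genes described here were grouped as genes of platelet adhesion receptors and of integrin activation, the switch of platelet integrins to their binding state. They are Gp1ba, Gp5, Gp9, Gp6 and Itga2b, which encode receptor subunits, and Rasgrp2, Apbb1ip, Fermt3, Pik3cg and Mylk3, which encode signalling proteins. They were taken by symbol from a table of 26970 genes measured by RNA sequencing in mouse mandibular condyles. The members were chosen by measured values, because the study drew 9 of them as osteoclast differentiation genes from the difference between Dspp+/- mice and WT mice in these libraries, and Gp1ba was added as the receptor partner of Gp5 and Gp9. Differences between the mutants and WT are therefore given as a description, with no test.

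The condyle is the joint head of the lower jaw, and it was dissected with its cartilage and subchondral bone attached. The libraries were WT (labelled +/+), Dspp+/- (heterozygous for a global knockout of Dspp on the C57BL/6 background) and Dspp-/- (homozygous for the same knockout), with 1 library per genotype. The mice were 4 months old, the WT and Dspp+/- libraries each came from pooled tissue of 3 mice, and the number of mice behind the Dspp-/- library is not stated in the sources used here. There were no replicates of any genotype, so each difference is between single pooled libraries. Both mutants were compared with the same WT library, and the values of the comparisons are given side by side.

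A platelet sticks to a damaged vessel wall when glycoprotein Ib, carried in the GPIb-IX-V complex, binds von Willebrand factor, and when glycoprotein VI binds collagen. Gp1ba, Gp5 and Gp9 encode subunits of that complex, Gp6 encodes glycoprotein VI, and Itga2b encodes the alpha chain that pairs with the beta chain of Itgb3 to form the fibrinogen receptor. That integrin stays in a low-affinity state until signals from inside the cell reach it. Rasgrp2 encodes the calcium-sensing exchange factor that loads the small GTPase Rap1, Apbb1ip encodes the adaptor RIAM that binds Rap1 and talin, and Fermt3 encodes kindlin-3, which binds the beta chain together with talin. Pik3cg encodes the catalytic subunit of the phosphoinositide 3-kinase gamma that works below G protein coupled receptors, and Mylk3 encodes a myosin light chain kinase known best from heart muscle. The receptor genes are known mainly from megakaryocytes, the marrow cells that shed platelets, whereas Rasgrp2, Apbb1ip, Fermt3 and Pik3cg are also used by white blood cells.

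The positions of the authors' table are of a build that the table does not name. In these positions Gp1ba lies on the plus strand at chr11:70529948-70532862, Gp5 on the minus strand at chr16:30126503-30129597, Gp9 on the plus strand at chr6:87755054-87756750, Gp6 on the minus strand at chr7:4366964-4400743 and Itga2b on the minus strand at chr11:102344123-102360948. Rasgrp2 lies on the plus strand at chr19:6449370-6465246, Apbb1ip on the plus strand at chr2:22664106-22765665, Fermt3 on the minus strand at chr19:6976326-6996837, Pik3cg on the minus strand at chr12:32223472-32258658 and Mylk3 on the minus strand at chr8:86050932-86112974. The 10 genes thus lie on 8 chromosomes. In the GENCODE M21 annotation, 8 of the 10 genes have no exon overlap with another gene. Gm14965 on the other strand overlaps 2.14% of the exon length of Rasgrp2, and Trpt1 on the other strand overlaps 1.54% of that of Fermt3. The library kit does not keep the strand, so fragments from these stretches cannot be assigned to either gene. Of the 100-base sequences in Rasgrp2 exons, 1.34% also occur in Gm14965 or Hmgcs1, and no other member shared any.

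The promoters of the 5 receptor genes are printed because these genes were high together in both mutants and encode parts of the same adhesion machinery. Each line holds the 250 bases before the transcription start from RefSeq (GRCm38.p6), read along the gene's own strand. The bases that follow the window were found in a transcript for Gp1ba, Gp6 and Itga2b, and not for Gp5 and Gp9. Capitals mark matches to either of 2 motifs on either strand, a GATA motif (AGATAA or AGATAG or TGATAA or TGATAG) and an ETS motif (CGGAAG or AGGAAG), whose factor families are known to act in megakaryocytes. The windows are chr11:70638872-70639121 (plus strand) for Gp1ba, chr16:30310782-30311031 (minus strand) for Gp5, chr6:87777820-87778069 (plus strand) for Gp9, chr7:4397745-4397994 (minus strand) for Gp6 and chr11:102469884-102470133 (minus strand) for Itga2b.
Gp1ba: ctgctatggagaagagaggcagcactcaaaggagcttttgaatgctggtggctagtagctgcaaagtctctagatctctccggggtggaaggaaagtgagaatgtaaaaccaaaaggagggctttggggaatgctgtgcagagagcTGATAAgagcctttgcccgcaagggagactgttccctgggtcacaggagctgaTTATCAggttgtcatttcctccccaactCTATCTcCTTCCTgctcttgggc
Gp5: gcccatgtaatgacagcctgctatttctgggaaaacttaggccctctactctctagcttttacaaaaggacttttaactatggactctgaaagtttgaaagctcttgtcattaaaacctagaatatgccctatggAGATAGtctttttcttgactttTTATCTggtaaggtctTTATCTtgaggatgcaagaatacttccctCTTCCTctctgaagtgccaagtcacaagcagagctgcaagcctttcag
Gp9: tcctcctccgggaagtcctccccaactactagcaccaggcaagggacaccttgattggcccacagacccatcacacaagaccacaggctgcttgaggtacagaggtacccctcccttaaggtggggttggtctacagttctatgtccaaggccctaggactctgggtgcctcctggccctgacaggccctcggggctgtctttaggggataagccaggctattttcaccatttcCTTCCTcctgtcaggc
Gp6: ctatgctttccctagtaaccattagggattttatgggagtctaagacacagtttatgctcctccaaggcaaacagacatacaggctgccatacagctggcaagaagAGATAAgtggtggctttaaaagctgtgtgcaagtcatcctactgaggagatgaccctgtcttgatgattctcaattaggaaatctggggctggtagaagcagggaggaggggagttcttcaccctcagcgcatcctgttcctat
Itga2b: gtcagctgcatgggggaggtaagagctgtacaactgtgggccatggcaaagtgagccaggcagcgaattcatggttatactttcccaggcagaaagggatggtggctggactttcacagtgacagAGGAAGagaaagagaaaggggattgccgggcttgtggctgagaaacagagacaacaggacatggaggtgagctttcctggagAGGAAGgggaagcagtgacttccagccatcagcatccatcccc

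Gp1ba and Gp5 each held 3 GATA matches and 1 ETS match. In both Gp1ba and Gp9 the ETS match lay at bases 16 to 11 before the start, and Gp9 held no GATA match. Gp6 held 1 GATA match, at bases 144 to 139, and Itga2b held 2 ETS matches, at bases 125 to 120 and 43 to 38. All 10 members had at least 1 RefSeq promoter, 13 in all, of which 5 promoters of 4 genes held the GATA motif and 9 promoters of 8 genes held the ETS motif. That is 38.5% and 69.2% of the 13 promoters, beside 26.5% and 39.2% of the 32851 RefSeq promoters of 27025 genes. The Pik3cg promoters overlap and share ETS matches, so the same matches count for more than 1 of the 9 promoters. Both motifs occurred in 3 of the 13 promoters (23.1%) and in 9.21% of all promoters. A match is a run of letters and was not tested as a binding site, and the members' share was not tested against that of all promoters.

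The values are FPKM, fragments per kilobase of gene scaled to the size of the library, which allows levels of different genes to be set side by side. Between 20241576 and 23613622 fragments were recovered per library, and 1 fragment in a gene of 1 kilobase was worth between 0.0423 and 0.0494 FPKM. Intervals in parentheses are 95% counting intervals from the recovered fragments, exact Poisson for a level and Clopper-Pearson for a fold, and they cover counting error only, because PCR copies of a molecule cannot be recognised. Xist, which is transcribed from the inactive X chromosome of female cells, had 2 fragments for WT, 12084 for Dspp+/- and 10563 for Dspp-/-. The genotype of each mutant and the sex of the mice therefore cannot be told apart in these libraries.

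All 5 receptor genes were higher in both mutant libraries than in WT, by 2.82-fold to 9.43-fold for Dspp+/- mice and 2.97-fold to 7.16-fold for Dspp-/- mice. Gp1ba, the subunit that holds the binding site for von Willebrand factor, was measured at 1.38 FPKM (1.09 to 1.73) for WT, 3.90 (3.43 to 4.41) for Dspp+/- and 4.10 (3.61 to 4.64) for Dspp-/-. The levels of the mutants were alike within counting error, and both lay above WT, 2.82-fold (2.17 to 3.69) and 2.97-fold (2.29 to 3.89). Gp5, a subunit of the same complex that thrombin cleaves, stood at 0.899 FPKM for WT from 40 fragments, 6.57 for Dspp+/- from 341 and 5.34 for Dspp-/- from 261. Gp5 was 7.31-fold (5.26 to 10.4) above WT in Dspp+/- and 5.94-fold (4.24 to 8.50) in Dspp-/-. Gp9, the small subunit that the complex needs to reach the cell surface, was measured at 1.07 FPKM for WT, 7.16 for Dspp+/- and 7.04 for Dspp-/-. Its gene is short, so these values rest on 19, 149 and 138 fragments, and the folds of 6.72 (4.16 to 11.5) and 6.61 (4.07 to 11.3) have wide intervals. In Dspp+/- the interval of Gp1ba lay wholly below those of Gp5 and Gp9. Gp5 and Gp9 were chosen from that contrast and Gp1ba was not, so nothing is read from this gap.

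Gp6, the collagen receptor, was the lowest of the 5 receptor genes in every library, at 0.126 FPKM (0.0703 to 0.207) for WT, 1.18 (1.01 to 1.38) for Dspp+/- and 0.899 (0.744 to 1.08) for Dspp-/-. Its WT level came from 15 fragments, and its fold of 9.43 (5.55 to 17.2) in Dspp+/- was the highest point value of the 10 members. In Dspp-/- the fold of Gp6 was 7.16 (4.17 to 13.2). Itga2b, the integrin chain that marks the megakaryocyte lineage, stood at 1.08 FPKM (0.893 to 1.29) for WT, 5.62 (5.22 to 6.05) for Dspp+/- and 4.42 (4.06 to 4.82) for Dspp-/-. The 3 intervals do not overlap, and the folds over WT were 5.22 (4.29 to 6.39) and 4.10 (3.36 to 5.05).

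**Figure D1:**
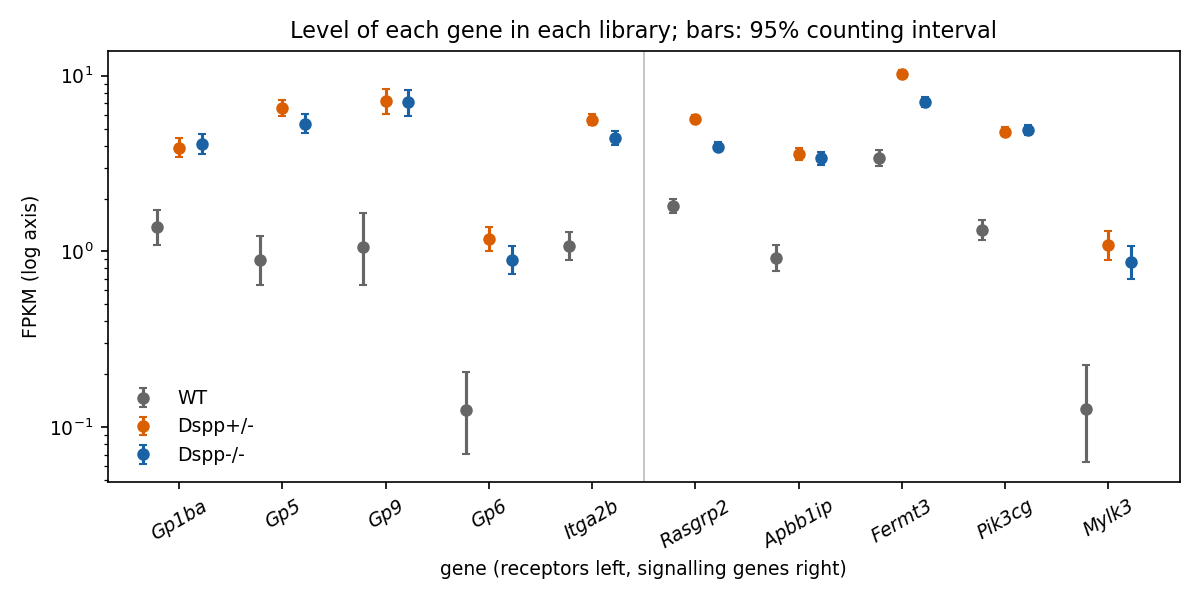
Level of each of the 10 genes (FPKM, log axis) in the WT, Dspp+/- and Dspp-/- libraries, with receptor genes left of the vertical line and signalling genes right of it. Points are single libraries and bars are 95% counting intervals; each WT point lies below both mutant points, and Gp6 and Mylk3 lie lowest in every library.

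The 5 signalling genes were higher in both mutants as well, with folds from 2.98 to 8.57 in Dspp+/- mice and from 2.08 to 6.86 in Dspp-/- mice. Rasgrp2 was measured at 1.82 FPKM (1.66 to 1.998) for WT, 5.67 (5.40 to 5.95) for Dspp+/- and 3.94 (3.71 to 4.18) for Dspp-/-. It was 3.11-fold (2.80 to 3.46) and 2.16-fold (1.93 to 2.41) above WT. Apbb1ip stood at 0.920 FPKM for WT from 138 fragments, 3.58 for Dspp+/- from 627 and 3.39 for Dspp-/- from 560. The mutants were alike within counting error for this Rap1 adaptor, with folds of 3.89 (3.23 to 4.72) and 3.69 (3.06 to 4.48) over WT. Fermt3 had the highest level of the 10 members in every library, at 3.41 FPKM (3.08 to 3.76) for WT, 10.2 (9.64 to 10.7) for Dspp+/- and 7.10 (6.65 to 7.58) for Dspp-/-. Its folds of 2.98 (2.67 to 3.34) and 2.08 (1.85 to 2.35) were among the smallest, so kindlin-3 was the most abundant transcript of the group but not the one that differed most.

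Pik3cg was measured at 1.33 FPKM (1.16 to 1.52) for WT, 4.81 (4.51 to 5.12) for Dspp+/- and 4.90 (4.59 to 5.23) for Dspp-/-. For this lipid kinase the folds were 3.61 (3.12 to 4.20) and 3.68 (3.18 to 4.28), and the mutants did not differ beyond counting error. Mylk3 stood at 0.127 FPKM (0.0633 to 0.227) for WT, 1.09 (0.894 to 1.31) for Dspp+/- and 0.871 (0.694 to 1.08) for Dspp-/-, from 11, 110 and 83 fragments. The folds of Mylk3 were 8.57 (4.61 to 17.7) and 6.86 (3.64 to 14.3), far less certain than those of the other signalling genes. Of the heart muscle markers, Myh6, Tnnt2, Tnni3 and Ryr2 had at most 0.305 FPKM in any library, and Tnni3 (0.287 FPKM) lay above Mylk3 in WT. Myh7, the myosin of heart and slow skeletal muscle, had 0.138, 1.04 and 0.297 FPKM and was 7.57-fold (4.95 to 12.1) above WT in Dspp+/-. These 5 markers were named after their values were seen, and their part in the values of Mylk3 was not tested.

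The order of the levels shifted between libraries. In WT, Fermt3 stood first and was higher than 68.2% of the genes in the table, followed by Rasgrp2, Gp1ba, Pik3cg, Itga2b, Gp9, Apbb1ip and Gp5, while Mylk3 and Gp6 were higher than only 31.6% and 31.5% of genes. Counting intervals of neighbours in this order overlapped except between Fermt3 and Rasgrp2 and between Gp5 and Mylk3. In Dspp+/-, Gp9 and Gp5 had moved up to the places after Fermt3, at 79.4% and 77.8%, and Gp1ba had moved down to a place after Pik3cg, at 69.0%. Neighbours overlapped there except between Fermt3 and Gp9, Itga2b and Pik3cg, Pik3cg and Gp1ba, and Apbb1ip and Gp6. In Dspp-/-, Fermt3 (7.10 FPKM) and Gp9 (7.04 FPKM) were level, and Rasgrp2 stood below Gp1ba within counting error. In that library the neighbours that did not overlap were Rasgrp2 and Apbb1ip, by a narrow gap, and Apbb1ip and Gp6.

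Fold thresholds were applied on the log2(FPKM + 1) scale, which damps the ratio of genes near or under 1 FPKM. On it 8 of the 10 members were at least 2-fold higher in Dspp+/- than in WT, beside 4.88% of the 13026 genes that averaged 1 FPKM or more over the libraries. In Dspp-/-, 6 of 10 were at least 2-fold higher, beside 4.05% of genes. No member was 2-fold lower, beside 2.86% of genes in Dspp+/- and 1.37% in Dspp-/-. Gp6 (0.96 and 0.75) and Mylk3 (0.89 and 0.73) missed the threshold on this scale in both mutants, and Rasgrp2 (0.81) and Fermt3 (0.88) missed it in Dspp-/-. Across the 10 members the log2 ratio had its median at 1.29 in Dspp+/- and 1.15 in Dspp-/-, beside 0.058 and 0.0070 for all genes compared. On plain FPKM ratios all 10 members were at least 2-fold higher in each mutant, beside 11.1% of the 16449 genes with at least 30 fragments in Dspp+/- and 9.53% in Dspp-/-. Because the Dspp+/- contrast chose 9 of these genes and the Dspp-/- contrast shares its WT library, nothing is read from these counts. A mean of at least 1 FPKM was reached by 8 members, all but Gp6 and Mylk3, and Gp5 and Apbb1ip reached it through the mutant libraries.

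**Figure D2:**
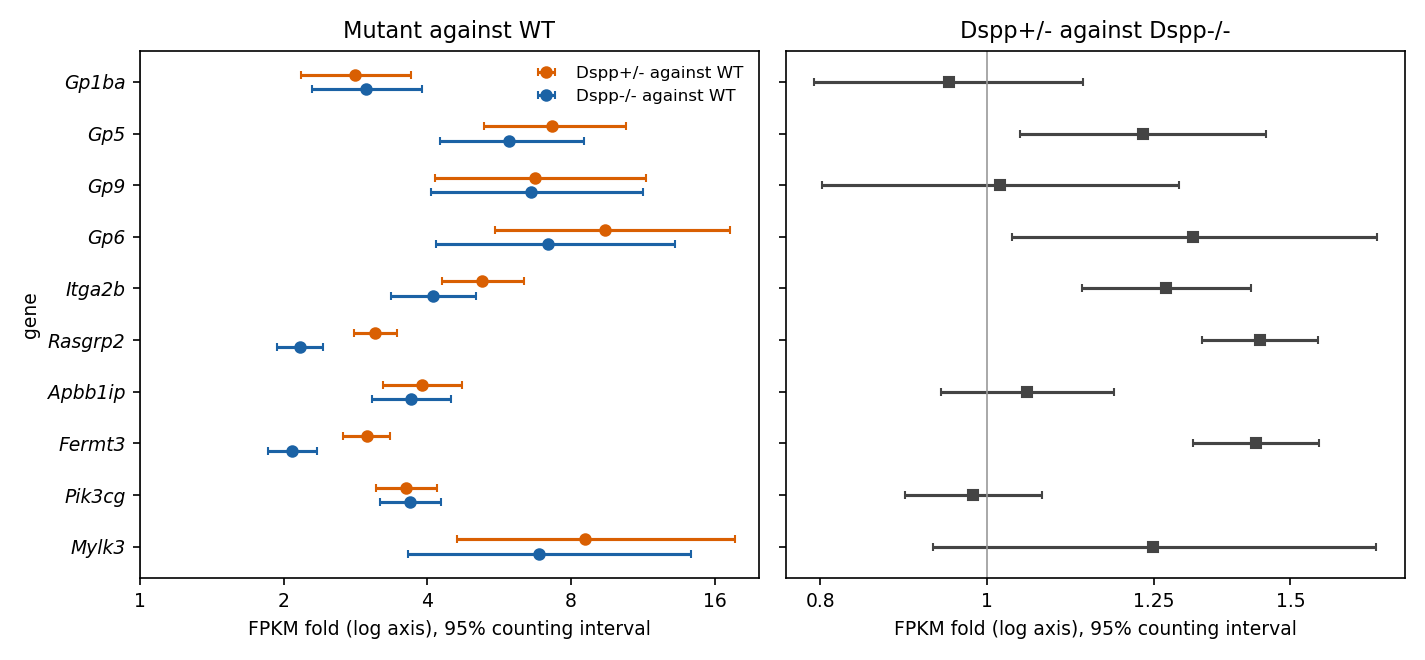
FPKM fold of each gene (log axes) for both mutants against WT on the left and for Dspp+/- against Dspp-/- on the right, where the vertical line is a fold of 1. Points are folds between single libraries and bars 95% counting intervals; Gp6, Mylk3, Gp5 and Gp9 have the highest folds over WT and also the widest intervals, and Rasgrp2 and Fermt3 stand farthest to the right in the comparison of the mutants.

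The point values of the folds varied among the members. Of the 45 pairs of members, 21 had counting intervals of the fold that did not overlap in Dspp+/-, and 17 in Dspp-/-. The share among pairs of other genes was not computed, so nothing is read from these counts. The receptor genes had a median FPKM fold of 6.72 in Dspp+/- and 5.94 in Dspp-/-, and the signalling genes one of 3.61 and 3.68. Gp1ba, the only member not chosen from the Dspp+/- contrast, departed from the other receptor genes with folds under 3. Mylk3 departed from the other signalling genes with folds above 6. Summed over the 5 receptor genes, the level was 4.55 FPKM for WT, 24.4 for Dspp+/- and 21.8 for Dspp-/-. Summed over the 5 signalling genes it was 7.61, 25.3 and 20.2 FPKM, so the receptor genes made up the smaller part of the summed level in WT and the larger part in Dspp-/-.

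In the members the mutants differed less from each other than from WT. Choosing members by the difference between Dspp+/- and WT favours this, so nothing is read from it. No member was 2-fold higher or lower in Dspp+/- than in Dspp-/- on the log2(FPKM + 1) scale, beside 0.798% and 0.852% of genes. The counting interval of the FPKM fold lay above 1 for 5 members, beside 31% of the genes with at least 30 fragments, and below 1 for 0 members, beside 23.3% of such genes. Those 5 were Rasgrp2 at 1.44-fold (1.33 to 1.56), Fermt3 at 1.43-fold (1.32 to 1.56), Gp6 at 1.32-fold (1.03 to 1.68), Itga2b at 1.27-fold (1.13 to 1.42) and Gp5 at 1.23-fold (1.04 to 1.45). The share of genes past counting error is large at this depth, and the spread between animals of one genotype is unknown, so 5 of 10 is not set apart from it here. For Gp1ba (0.950, 0.794 to 1.14), Pik3cg (0.981, 0.895 to 1.08), Gp9 (1.02, 0.802 to 1.29), Apbb1ip (1.06, 0.940 to 1.18) and Mylk3 (1.25, 0.931 to 1.68) no difference was detectable at this depth.

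Ratios within a library do not depend on how the libraries were scaled. Against Itga2b, the Fermt3 level was 3.16-fold for WT, 1.81-fold for Dspp+/- and 1.60-fold for Dspp-/-. Rasgrp2 likewise stood at 1.69, 1.01 and 0.890 times Itga2b, and Gp1ba at 1.28, 0.693 and 0.927 times. Apbb1ip (0.853, 0.637 and 0.767) and Pik3cg (1.23, 0.856 and 1.11) also had lower ratios to Itga2b in both mutants. Counting intervals of the fold over WT lay apart from that of Itga2b in both mutants only for Fermt3 and Rasgrp2. For Gp1ba and Pik3cg they lay apart in Dspp+/- only, and for the other members in neither mutant. Gp9 went the other way, at 0.988, 1.27 and 1.59 times Itga2b, and Gp5 at 0.834, 1.17 and 1.21 times. Gp6 and Mylk3, both low, had nearly the same ratio to Itga2b in each library, 0.117 and 0.118 for WT, 0.211 and 0.193 for Dspp+/-, and 0.203 and 0.197 for Dspp-/-. The platelet chemokine gene Ppbp gained on all 10 members for Dspp-/-, where the Itga2b level was 0.0510 of Ppbp, against 0.103 for WT and 0.0743 for Dspp+/-. For Gp5, Gp9, Gp6 and Mylk3 this gain lay within counting error, as their fold intervals overlapped that of Ppbp (7.24 to 9.56). Against Pf4, another platelet chemokine gene, 7 of the 10 members instead gained for Dspp-/-, and Gp5 was 0.0924, 0.231 and 0.169 of it. Among these 7, only Gp5, Gp9 and Gp6 had fold intervals apart from that of Pf4 (2.69 to 3.94).

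**Figure D3:**
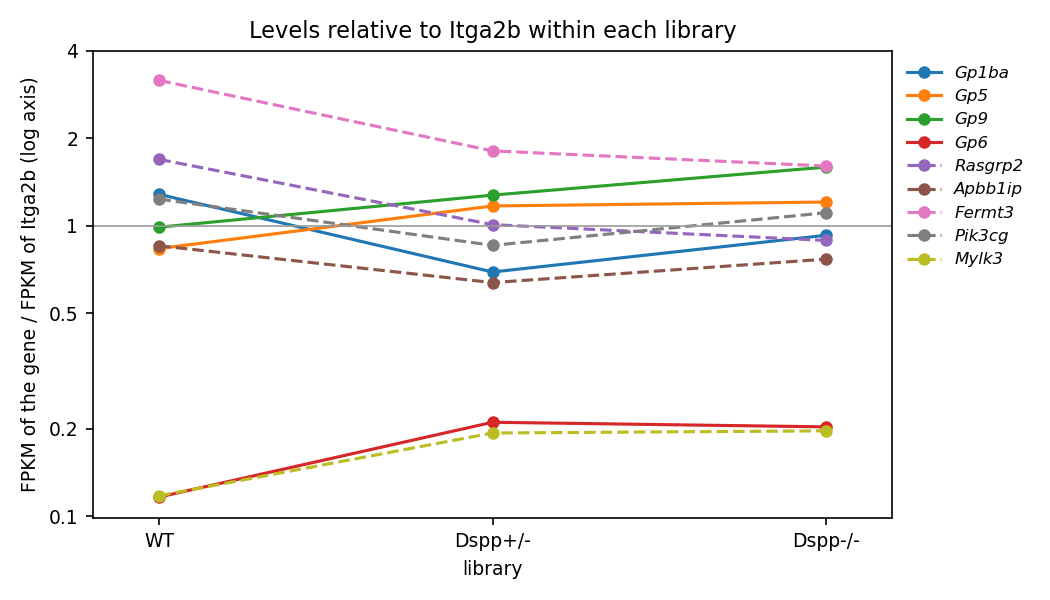
FPKM of 9 members divided by the FPKM of Itga2b in the same library (log axis) for WT, Dspp+/- and Dspp-/-, with receptor genes as solid and signalling genes as dashed lines that only join the 3 single libraries. The lines of Fermt3 and Rasgrp2 fall from WT to both mutants, those of Gp9 and Gp5 rise, and Gp6 and Mylk3 run together at the bottom.

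The partner chains Itgb3 and Fcer1g were nearer to their WT level than the members. Most members were chosen for differing from WT in Dspp+/-, so nothing is read from that. Itgb3, the beta chain that Itga2b needs, was measured at 37.8 FPKM for WT, 25.8 for Dspp+/- and 30.9 for Dspp-/-, and was 0.682-fold (0.653 to 0.713) and 0.818-fold (0.784 to 0.854) of WT. The level of Itga2b was therefore 0.0285 of that of Itgb3 for WT, 0.218 for Dspp+/- and 0.143 for Dspp-/-. Itgav, the other alpha chain that pairs with Itgb3 and is abundant in osteoclasts, stayed far above Itga2b, with 25.6, 15.0 and 22.2 FPKM, or 0.678, 0.580 and 0.716 of Itgb3. Fcer1g, the signalling chain that glycoprotein VI shares with Fc receptors, was 1.70-fold (1.49 to 1.94) and 1.82-fold (1.59 to 2.08) of WT, and Gp6 was 0.00665, 0.0369 and 0.0262 of it. Itgb3 and Fcer1g were picked for their pairing with members after their values were seen. Gp1bb, the remaining chain of the GPIb-IX-V complex, was not analysed here.

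Most paralogs of the members stayed within 2-fold of WT on the log2(FPKM + 1) scale. Of 12 paralogs compared, 2 were at least 2-fold higher in Dspp+/- and 1 in Dspp-/-, beside 4.88% and 4.05% of all genes compared. In either mutant 0 were 2-fold lower, beside 2.86% and 1.37%. Fermt2, which encodes the kindlin of most adherent cells, stood at 40.0 FPKM for WT, 38.6 for Dspp+/- and 42.0 for Dspp-/-, so the summed kindlin level was set mostly by Fermt2 and not by Fermt3. Fermt1 was not analysed here. Rasgrp4, an exchange factor of myeloid cells, had 0.613, 2.72 and 2.37 FPKM and folds of 4.44 (3.48 to 5.72) and 3.87 (3.02 to 5.01). Rasgrp1 had 1.13, 1.65 and 2.37 FPKM, and Rasgrp3 had 5.35, 6.81 and 6.33 FPKM, and neither passed 2-fold on that scale in either mutant. The plain FPKM fold of Rasgrp1 was 2.10 (1.70 to 2.60) in Dspp-/-. Pik3cd, the leukocyte kinase closest in use to Pik3cg, had 4.18, 9.46 and 8.12 FPKM and a fold of 2.27 (2.05 to 2.51) in Dspp+/-. The widely used Pik3ca (12.4, 13.9 and 15.2 FPKM) and Pik3cb (4.00, 5.36 and 5.97 FPKM) differed from WT by less than 1.5-fold. Raph1, the sister of Apbb1ip, was lower in Dspp+/- at 5.74 FPKM than in WT at 9.07 and Dspp-/- at 8.55.

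Among the relatives of Mylk3, Mylk, the kinase of smooth muscle and most other cells, had 11.3, 11.0 and 11.2 FPKM. Mylk2, the kinase of skeletal muscle, was measured at 86.3 FPKM for WT, 96.3 for Dspp+/- and 65.5 for Dspp-/-, and Mylk4 had 40.7, 37.8 and 63.7. Both stood far above Mylk3 in every library, and their directions against WT differed between the mutants, whereas Mylk3 was higher in both.

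Other genes of platelet adhesion and integrin activation were listed by role, 84 genes in 7 lists, of which 78 had a mean of at least 1 FPKM. In Dspp+/-, 12 of the 78 (15.4%) were at least 2-fold higher and 3 (3.85%) at least 2-fold lower, with a median log2 ratio of 0.20, beside 4.88% and 2.86% of all genes compared. In Dspp-/-, 7 (8.97%) were higher and 0 lower, with the same median of 0.20, beside 4.05% and 1.37%. The pathway as a whole thus held many genes that stayed near WT beside the 10 members.

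By role, the list of ligands held 3 genes at least 2-fold lower in Dspp+/- and 0 higher among 7 compared, with a median log2 ratio of -0.23 in Dspp+/- and -0.40 in Dspp-/-. The 3 were the collagen genes Col1a1 (6675 FPKM in WT and 1719 in Dspp+/-), Col1a2 (2779.95 and 699.8) and Col3a1 (576 and 185), which encode the matrix that glycoprotein VI and other receptors bind. Vwf, the ligand of Gp1ba, had 4.64, 7.41 and 6.36 FPKM, a fold of 1.60 (1.4999 to 1.70) in Dspp+/-. Collagen mRNA and the mRNA of the collagen receptor Gp6 thus differed from WT in opposite directions. Among 12 other adhesion receptors 1 was 2-fold higher in each mutant, with medians of -0.41 and -0.16. It was Cd36, the thrombospondin and fatty acid receptor, with 84.1, 217 and 175 FPKM. Itgb1, the most abundant of the list in WT, had 174, 137 and 157 FPKM, and Itga2, its partner in collagen binding, had 7.34, 3.84 and 6.39 FPKM.

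Among 13 genes of integrin activation, 1 was 2-fold higher in each mutant and 0 were lower, with medians of 0.28 and 0.21. It was Rasgrp4. Rap1b, the main Rap GTPase of platelets and the substrate of the Rasgrp2 product, stood at 59.2 FPKM for WT, 63.1 for Dspp+/- and 85.3 for Dspp-/-. Tln1, which encodes the talin that works with kindlin-3, had 37.5, 46.6 and 43.0 FPKM, a fold of 1.24 (1.21 to 1.28) in Dspp+/-, and was chosen after its values were seen. Both genes are used by most cells and were more abundant than any member. The largest group of higher genes was tyrosine kinase signalling, the route below glycoprotein VI, where 6 of 12 were 2-fold higher in Dspp+/- and 3 in Dspp-/-, with medians of 1.02 and 0.76 and 0 lower. Ptpn6, a phosphatase of blood cells, had 6.19, 18.7 and 15.97 FPKM, and Fyn, a kinase of many tissues, had 21.4, 12.9 and 14.6 FPKM. The others at least 2-fold higher in Dspp+/- were Lyn, Plcg2, Vav1, Btk and Grap2, all of which white blood cells also use. The platelet adaptor gene Grap2 came closest to Gp6 in fold, at 0.229 FPKM for WT, 2.12 for Dspp+/- and 1.61 for Dspp-/-, or 9.25-fold (6.32 to 14.0) for Dspp+/-, and these 5 genes were named after their values were seen.

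The remaining lists cover signals that reach the integrin from other receptors and the contractile machinery. Of 13 genes for G protein coupled receptors and G proteins, 3 were 2-fold higher in Dspp+/- and 2 in Dspp-/-, with medians of 0.22 and 0.31 and 0 lower. F2rl2, the thrombin receptor subunit of mouse platelets, had 0.474, 3.40 and 4.49 FPKM, Gnai2 had 90.9, 82.5 and 86.5, and Adra2a had 1.84, 1.37 and 1.47. Of 10 phosphoinositide 3-kinase genes, Pik3cd was 2-fold higher in Dspp+/- and 0 were in Dspp-/-, with medians of 0.14 and 0.10. Akt1 had 43.6, 37.0 and 30.5 FPKM and Pik3r2 had 16.9, 11.6 and 10.8. Of 11 genes for myosin light chain kinases and contraction, 0 passed 2-fold in either direction, with medians of 0.04 and -0.01, and Ppp1r12a had 12.5, 15.2 and 15.4 FPKM.

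**Figure D4:**
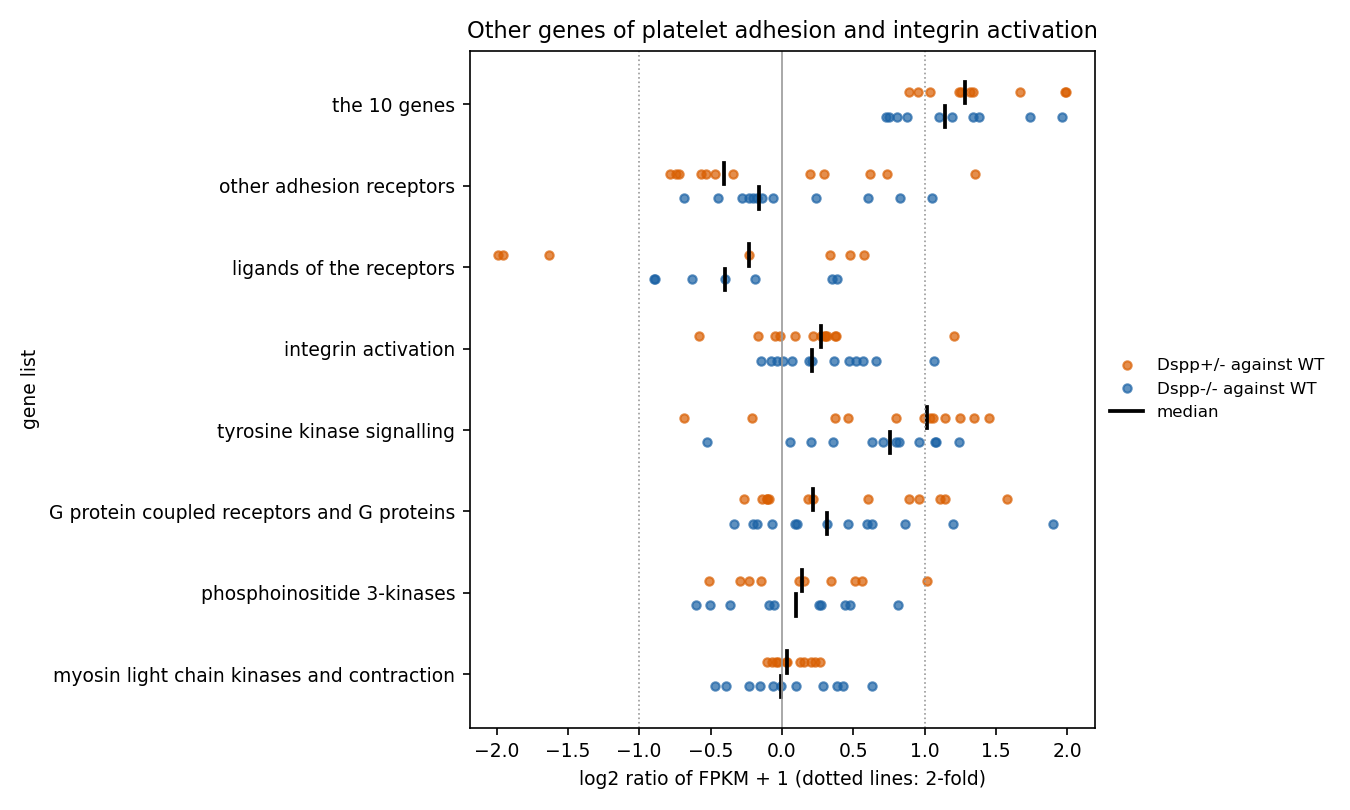
Log2 ratio of FPKM + 1 against WT for the 10 genes and for 7 lists of other platelet adhesion and integrin activation genes that averaged 1 FPKM or more, with each point a gene, black bars medians and dotted lines 2-fold. The 10 genes and the tyrosine kinase list lie mostly to the right, the other lists lie around 0, and the 3 points at the far left are collagen genes.

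Of 13018 other genes that averaged 1 FPKM or more, the 5 whose pair of log2 ratios lay nearest to the median pair of the members (1.29 and 1.15) were Siglece, Cd48, BC035044, Baz1a and Fignl1, at distances from 0.0243 to 0.0641. Siglece, an inhibitory receptor of myeloid cells, was measured at 1.42 FPKM for WT, 4.99 for Dspp+/- and 4.35 for Dspp-/-. Cd48, a surface protein of most blood cells, had 3.66, 10.04 and 9.56 FPKM. Baz1a, a chromatin remodelling factor, had 3.14, 8.85 and 7.85 FPKM. Of the 13018 genes, 447 lay between the lowest and highest member in both comparisons, so values in that range were not particular to the members.

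Markers of several blood cell types that marrow holds were higher together with the members. Of all genes compared, 4.88% were at least 2-fold higher in Dspp+/- and 4.05% in Dspp-/-. Of 12 megakaryocyte and platelet markers compared, none of them a member, 8 were at least 2-fold higher for Dspp+/- and 9 for Dspp-/-, and the summed level of all 14 listed was 62.5 FPKM for WT, 172 for Dspp+/- and 187 for Dspp-/-. Ppbp had 10.4, 75.6 and 86.7 FPKM, and Gng11, which endothelial cells also express, had 35.1, 24.4 and 28.6. Gng11 thus made up most of the WT sum, and Ppbp was the highest of the 14 in both mutants. In bulk tissue, more cells of a type and more RNA per cell cannot be told apart. Markers of other blood cells were higher in both mutants too. All 10 erythroid markers were at least 2-fold higher in each, with summed levels of 831, 3535 and 3366 FPKM, among them Hbb-bs with 425, 1794 and 1886 FPKM and Slc4a1 with 1.01, 54.2 and 40.5. All 10 neutrophil markers were as well, with sums of 618, 2679.5 and 3632 FPKM, among them S100a9 with 232, 916 and 1339 FPKM and Elane with 4.77, 175 and 78.3. Of 8 B cell markers 6 were 2-fold higher in each mutant, with sums of 25.4, 77.4 and 61.2 FPKM. Cd79a had 5.49, 21.6 and 12.9 FPKM, Cd79b had 5.90, 21.8 and 15.4, and Vpreb1 had 1.40, 0.565 and 1.46. The part of megakaryocytes and other blood cells in the differences of the 10 genes was not tested.

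Not all marrow and vessel markers moved. None of 7 macrophage markers passed 2-fold in either mutant, with sums of 174, 146 and 149 FPKM, where Cd68 had 50.4, 34.7 and 44.3 FPKM, Csf1r had 43.2, 25.1 and 33.2 and Adgre1 had 5.90, 8.30 and 7.83. None of 7 endothelial markers did, with sums of 145, 159 and 153 FPKM, where Cdh5 had 48.9, 56.2 and 52.8 FPKM, Kdr had 10.9, 15.0 and 12.9 and Emcn had 6.01, 5.07 and 8.17. Of 8 T cell markers only Trac (2.17, 2.58 and 2.50 FPKM) and Cd4 (1.78, 2.45 and 1.69 FPKM) reached the level compared, and Cd3e and Cd3g were at or under 3 fragments in WT, and Cd3g also in Dspp-/-. Of the muscle markers, 3 skeletal ones were compared, none passed 2-fold, and Acta1 had 5609, 8162 and 7150.1 FPKM.

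Osteoclast markers, in contrast to the 10 genes, were lower in both mutants. Of all genes compared, 2.86% were at least 2-fold lower in Dspp+/- and 1.37% in Dspp-/-. Of 8 compared, 6 were at least 2-fold lower for Dspp+/- and 1 for Dspp-/-, all 8 lay below WT in each, and their summed level was 2258 FPKM for WT, 804 for Dspp+/- and 1317 for Dspp-/-. Ctsk, the collagen-cleaving protease of osteoclasts, had 863, 279 and 481 FPKM. The genes of the tissue itself were present and lower as well. Chondrocyte markers summed to 1117, 138 and 470 FPKM, with 4 of 5 at least 2-fold lower in Dspp+/- and 3 in Dspp-/-, among them Col2a1 with 761, 94.2 and 308 FPKM and Col10a1 with 246, 17.3 and 107, and Matn1 was at or under 3 fragments in every library. Osteoblast markers summed to 10619.8, 2855 and 5639 FPKM, with 6 of 6 at least 2-fold lower in Dspp+/- and 2 in Dspp-/-. FPKM is a share of the library, so a lower share of abundant genes is met by a higher share of others, which was looked at only by rescaling.

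**Figure D5:**
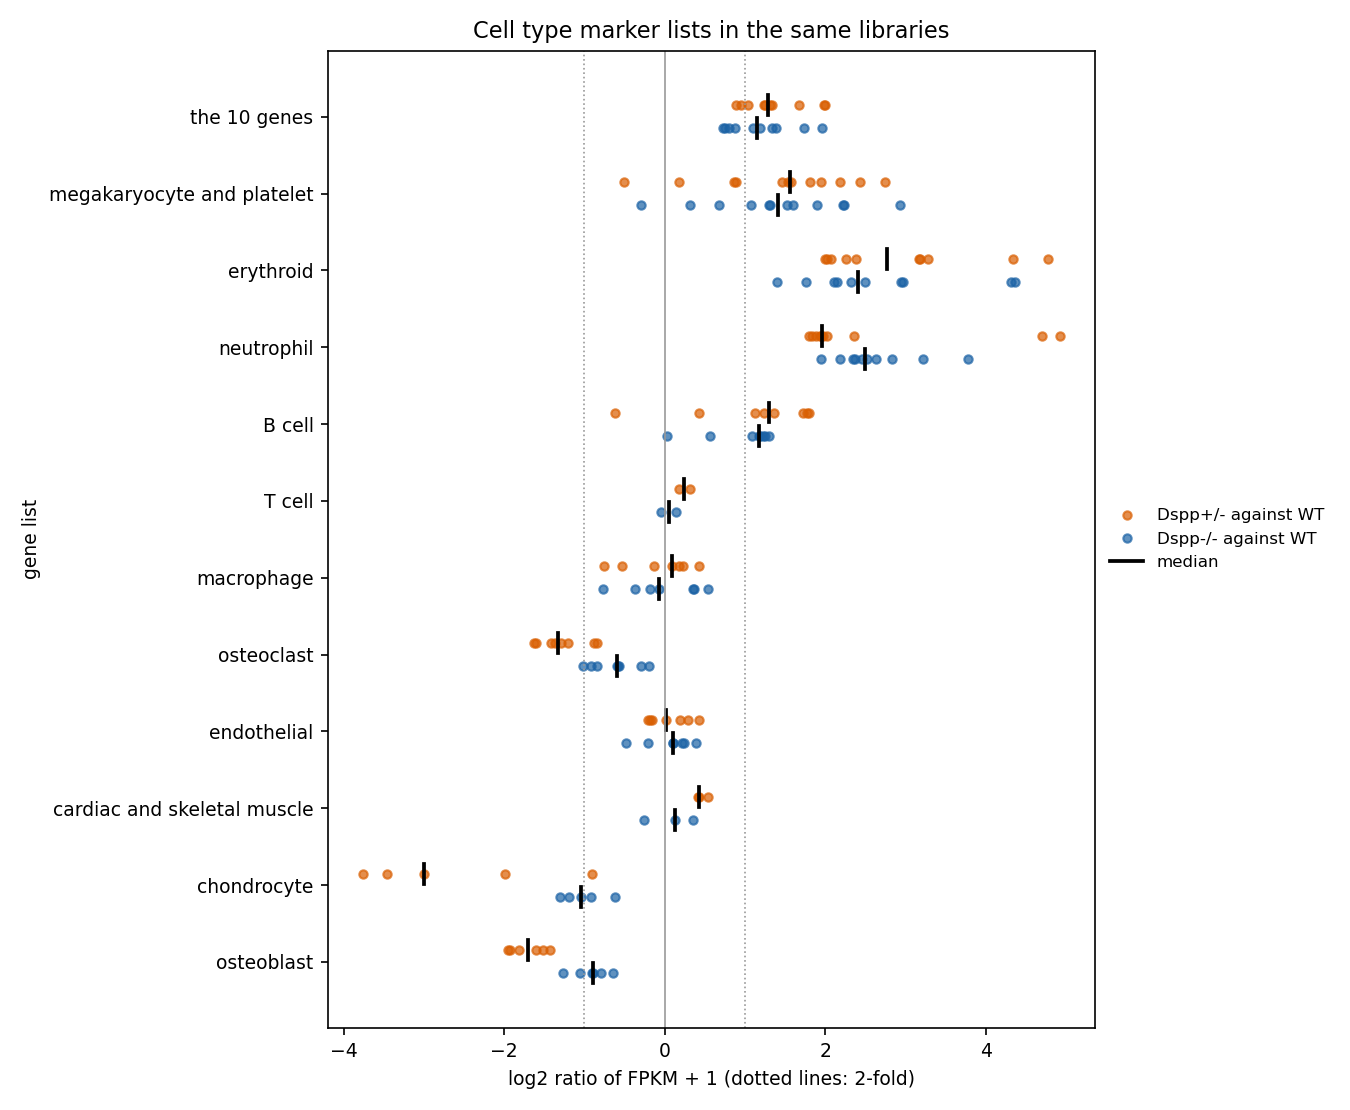
Log2 ratio of FPKM + 1 against WT for the 10 genes and for 11 lists of cell type markers with a mean of at least 1 FPKM, with each point a gene, black bars medians and dotted lines 2-fold. The 10 genes, mostly chosen for being higher in Dspp+/-, lie right of 0. All megakaryocyte points but Gng11 do too, and the osteoclast, chondrocyte and osteoblast points lie left of it.

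The direction of the members over WT held under each of 4 other scalings of the libraries. The scaling factors of the mutants, from 0.949 to 1.08, were too small a change to reverse it. All 10 stayed higher and at least 2-fold higher in plain FPKM in both mutants, with the lowest fold between 2.68 and 3.05 in Dspp+/- and between 2.04 and 2.25 in Dspp-/-. In Dspp+/- against Dspp-/-, 8 members were higher as deposited and 7 under median-ratio or upper-quartile scaling. Leaving mitochondrial genes out of the library size moved the median log2 ratio of all genes compared to 0.16 in Dspp+/- and 0.098 in Dspp-/-, and the median fold of the members to 4.93 and 4.20, from 4.55 and 3.90.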

How the data were processed

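Condyle RNA was poly(A)-selected, made into NEBNext Ultra libraries and sequenced in pairs by CapitalBio Technology. The authors deposited 1 value per gene and genotype for 26970 genes. The unit is not named and was read as FPKM, because the deposited FPKM values, multiplied by the summed exon length of GENCODE M21, came out as whole fragments (within 0.05) for 98.6% to 98.7% of genes under 100 fragments in each library. The submitters' processing notes name FastQC 0.11.5, HISAT2 2.1.0, StringTie 1.3.3b and DESeq 1.28.0, with no roles, and the human build hg38. The mouse build and annotation are not given in the sources used here, and 578 genes share start and end with M21, so positions were not mixed. The labels speak of triplicates, and each single value was taken as 1 pooled library.

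From the FPKM, fragments and depths were recovered for 26641 genes with an M21 length and gave the 95% intervals and a floor of 3 fragments. The recovery was tested on simulated data. Genes whose mean over the 3 libraries was 1 FPKM or more were compared on the scale log2(FPKM + 1), which understates the change of low genes, with a threshold of 2-fold. With 1 library per genotype no test was possible. The members, gene lists and thresholds were chosen with earlier results of these data known. Besides the members, the text names for each list the gene most abundant in WT, the largest rise and the largest fall in Dspp+/-, the paralogs, and the 5 nearest genes by log2 ratios. Genes outside this rule are marked as such where named or are the called or absent members of a list. Alternatives were other pseudocounts, filters, thresholds and scalings. Dspp was not analysed here, nor were Fga, Fgb, Fgg and Nppa. The software was matplotlib 3.10.9, scipy 1.17.1, pandas 2.3.3 and numpy 2.4.6 under Python 3.11.15.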

Additional observations from a re-analysis of the deposited data

Results flagged for a closer look

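Only the members and the genes that the naming rule picked were looked at for opposite directions. In 3 of them the mutants lay on opposite sides of WT, beyond counting error in each. Mylk2, the skeletal muscle relative of Mylk3, had a fold over WT of 1.12 in Dspp+/- and 0.759 in Dspp-/-. Mylk4, another relative, went the other way, with folds of 0.929 and 1.56. The endothelial marker Emcn had folds of 0.844 and 1.36. With 1 library per genotype, the difference between the mutants was not tested for any of them. No member was on opposite sides of WT.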

How the results depend on the processing

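The median log2 ratio of the members was 2.07 in Dspp+/- and 1.87 in Dspp-/- with a pseudocount of 0.1 FPKM, and 0.64 and 0.52 with a pseudocount of 5, against 1.29 and 1.15 with a pseudocount of 1. Under the 4 other scalings and with only the 8 members of at least 1 FPKM, these medians moved by less than the mean counting error. The count of members at least 2-fold higher in Dspp+/- was 1 with a pseudocount of 5 and 0 at a threshold of 4-fold, against 8. In Dspp-/- the count was 10 with a pseudocount of 0.1, 10 at a threshold of 1.5-fold and 10 on plain FPKM ratios, an alternative added after seeing the data, and 0 with a pseudocount of 5 and 0 at 4-fold, against 6. These members lie near 1 FPKM in WT, so the pseudocount itself sets much of the ratio. For Dspp+/- against Dspp-/- the count was 0 in all 10 alternatives, and the median, 0.18, ranged from 0.06 to 0.29.

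Among all genes, the count at least 2-fold higher in Dspp+/- was 636, 971 with a pseudocount of 0.1, 185 with one of 5 and 281 among genes averaging at least 5 FPKM, and ran from 124 at 4-fold to 1501 at 1.5-fold. In Dspp-/- it was 527, 836, 136 and 228, and ran from 103 to 1152. Lower genes ran from 24 to 1166 in Dspp+/-, against 373, and from 6 to 1070 in Dspp-/-, against 179. For Dspp+/- against Dspp-/- higher genes ran from 13 to 563, against 104, and lower genes from 15 to 441, against 111. No paired analysis was possible because each genotype has 1 library. Leaving out a library was not possible either. Depth limits Gp6, Mylk3 and Gp9 most, with 15, 11 and 19 fragments in WT.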
